A study of Mus musculus with 6 samples.

Results

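Of the 185015 regions obtained by merging the ATAC peaks of 6 libraries of mouse visual cortex astrocyte nuclei, 881 (0.476%) held a peak in each of the 3 GR-KO libraries and in none of the 3 GR-Con libraries. These GR-KO-only regions are described here. All peak intervals were pooled, intervals sharing 1 bp or more were merged, and a merged region was kept when every GR-KO list and no GR-Con list had a peak in it. The mirror set, with a peak in every GR-Con list and no GR-KO list, held 1669 regions (0.902%), and 90301 regions (48.8%) had a peak in all 6 lists. Membership was thus chosen by peak calls in these same libraries, so the counts, the widths and the peak strengths of the members are a description and carry no test.

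Both groups were GRfl/fl mice, which carry a floxed allele of the glucocorticoid receptor gene Nr3c1, and both were injected at P0 to P1 with an AAV driven by GfaABC1D, a short GFAP promoter used to direct expression to astrocytes. The AAV2/5 vector placed the promoter before ΔCre, an inactive recombinase, in GR-Con and before Cre in GR-KO. In both it was followed by T2A, EGFP fused to KASH, which holds the label at the nuclear envelope, and the element 4x6T. Primary visual cortex (V1) was taken at P21, GFP-positive nuclei were sorted, and each library was made from tissue pooled from 3 to 4 mice, so the library and not the mouse is the replicate. The GFP marks expression from the virus and not recombination. In a pooled library, a weaker peak in every nucleus and a peak in fewer nuclei cannot be told apart.

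The glucocorticoid receptor (GR) is a hormone-activated transcription factor of the nuclear receptor family. It binds DNA as a dimer at a palindrome of AGAACA-like sites and can either raise or lower transcription nearby. ATAC-seq marks DNA that is accessible to the Tn5 transposase, and a peak is a place where more such cuts were found than in the surrounding DNA. In astrocytes the receptor mediates the response to circulating glucocorticoids, and its classical targets include Fkbp5 and the metallothionein genes.

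The DNA around the summits of 8 strong members is shown here so that the 6-mer described further on can be seen in place, in windows with and without it. Each line gives 200 bp of the mm10 reference (GRCm38, plus strand), centred on the summit in the GR-KO library where the peak was highest, with the nearest protein-coding gene as its name. Capitals mark the 6-mer ACTGTA, or TACAGT where it lies on the other strand. The first 4 are the members of the highest rank, and the last 4 follow in rank order among the members that hold the 6-mer, with the one in Nr3c1 passed over and not shown.
Pdzd2 (intron), chr15:12654947-12655146: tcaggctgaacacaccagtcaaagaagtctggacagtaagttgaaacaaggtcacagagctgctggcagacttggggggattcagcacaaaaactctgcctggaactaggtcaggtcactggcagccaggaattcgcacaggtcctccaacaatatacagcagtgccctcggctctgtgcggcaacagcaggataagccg
Cox7b2 (in an intron of Gabra4), chr5:71590432-71590631: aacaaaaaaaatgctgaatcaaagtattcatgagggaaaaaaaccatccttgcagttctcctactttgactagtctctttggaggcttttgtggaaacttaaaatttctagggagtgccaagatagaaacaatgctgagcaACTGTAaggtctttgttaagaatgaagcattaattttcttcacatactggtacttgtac
Cyp4f13 (intron), chr17:32935040-32935239: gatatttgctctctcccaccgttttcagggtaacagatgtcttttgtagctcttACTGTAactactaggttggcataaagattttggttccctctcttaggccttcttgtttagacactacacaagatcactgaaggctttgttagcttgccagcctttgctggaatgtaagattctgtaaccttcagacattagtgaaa
Ankrd28 (exon), chr14:31705184-31705383: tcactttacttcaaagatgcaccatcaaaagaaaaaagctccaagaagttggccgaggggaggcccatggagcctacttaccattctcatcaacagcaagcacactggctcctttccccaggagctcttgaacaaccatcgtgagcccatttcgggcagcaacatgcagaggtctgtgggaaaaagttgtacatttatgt
Arid5b (intron), chr10:68193055-68193254: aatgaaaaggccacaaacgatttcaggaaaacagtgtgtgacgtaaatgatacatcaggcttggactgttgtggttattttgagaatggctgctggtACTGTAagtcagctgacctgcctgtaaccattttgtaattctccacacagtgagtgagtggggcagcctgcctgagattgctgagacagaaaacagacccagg
Cdh9 (intergenic), chr15:17007809-17008008: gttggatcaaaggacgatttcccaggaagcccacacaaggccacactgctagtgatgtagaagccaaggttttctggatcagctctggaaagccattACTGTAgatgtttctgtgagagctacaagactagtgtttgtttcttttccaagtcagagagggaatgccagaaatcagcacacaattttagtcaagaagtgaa
Cpxm2 (in an intron of Fgfr2), chr7:132196676-132196875: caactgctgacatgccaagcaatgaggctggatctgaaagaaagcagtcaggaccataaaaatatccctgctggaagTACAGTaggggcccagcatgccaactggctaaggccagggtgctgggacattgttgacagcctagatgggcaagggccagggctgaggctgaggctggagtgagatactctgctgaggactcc
Dab1, chr4:103817057-103817256: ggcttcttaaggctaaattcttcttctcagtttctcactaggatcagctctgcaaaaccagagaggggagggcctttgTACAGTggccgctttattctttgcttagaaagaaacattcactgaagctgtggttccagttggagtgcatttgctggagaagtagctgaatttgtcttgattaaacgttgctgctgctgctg

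Of the 4 windows shown for their rank, those at Cox7b2 and Cyp4f13 held the 6-mer and those at Pdzd2 and Ankrd28 did not, while the last 4 were picked because they hold it. The copy lay at the summit in the Arid5b and Cdh9 windows and farther from it in those at Cox7b2 and Cyp4f13. The Cox7b2 window also held an AP-1 motif (TGANTCA) and a SOX motif (ACAATG). The GC content of the 8 windows ran from 35.5% at Cox7b2 to 55% at Cpxm2. None of them held the GR palindrome GNACANNNTGTNC.

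The lists of the groups did not overlap in length, and each GR-KO list was shorter than each GR-Con list. They held 179462 to 184056 peaks in GR-KO and 184618 to 198929 in GR-Con, with means of 182496 ± 2628 (SD, n = 3) and 189647 ± 8048 (SD, n = 3), and the difference gave an exact permutation p of 0.1, the smallest that 3 against 3 can give. The difference of −7150 peaks was −2509 without GR-Con 3, the longest list. Depth is unknown, since the lists hold no read counts. As a check of the label, all 15 astrocyte genes in a marker list had a promoter peak in all 6 libraries, with library medians of the fold from 7.91 to 8.96. Of the markers of other cells, 9 of 12 neuron genes, 5 of 10 oligodendrocyte lineage genes, 3 of 10 microglia genes and 7 of 10 vessel cell genes also had a promoter peak in all 6. The library medians of the neuron list were 5.27 to 6.43 in GR-Con and 5.05 to 5.49 in GR-KO, those of the oligodendrocyte list 2.92 to 4.03 and 1.72 to 3.23, and those of the vessel list 3.88 to 4.80 and 3.27 to 3.55. The groups overlapped in the neuron and oligodendrocyte lists but not in the vessel list, nor in the astrocyte list, which had 7.91 to 8.39 in GR-Con and 8.47 to 8.96 in GR-KO. The microglia medians were 0, because 6 of the 10 genes had no promoter peak in any library. The part that nuclei of other types play in the members was not tested.

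GR-KO-only regions were weak and narrow. The fold of a peak is the ratio of its summit to the local background of its own library. The median fold of the members was 3.07, 3.03 and 2.99 in GR-KO 1, 2 and 3, against 8.49, 8.52 and 8.37 for regions with a peak in all 6 lists in the same libraries. Within its own list the median member stood at percentile 25.8, 23.4 and 23.5. The strongest values reached a fold of 9.21, 8.14 and 8.79. GR-Con-only regions had similar medians, 3.25, 3.21 and 3.10 in GR-Con 1, 2 and 3, but a longer upper tail, with maxima of 19.4, 15.2 and 13.9.

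**Figure D1:**
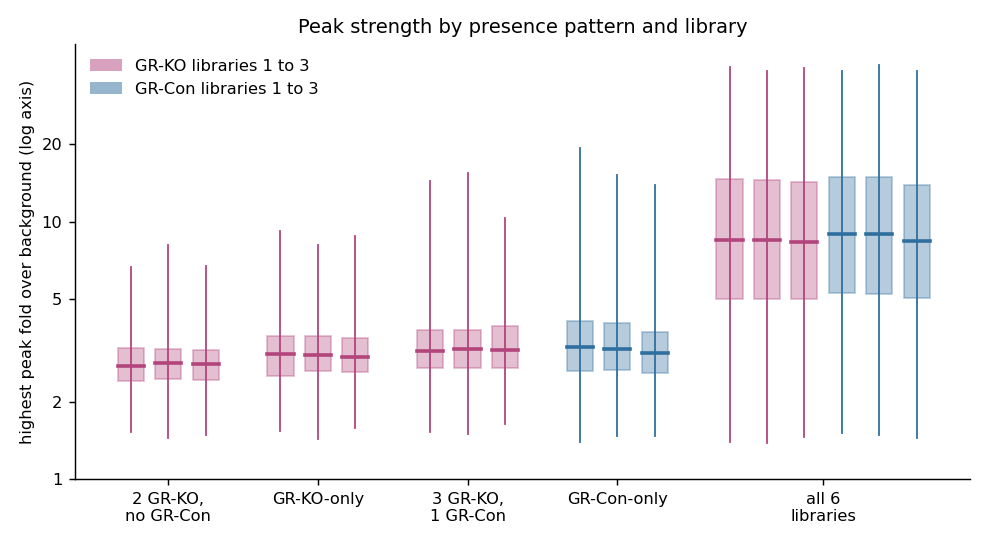
Highest peak fold of each region, on a log axis, by presence pattern and library; boxes span the quartiles, thick lines are medians and thin lines run from the lowest to the highest region. Medians of GR-KO-only regions lie near 3 in every GR-KO library, between those of regions missing 1 GR-KO library and those with 1 GR-Con peak, and far below those of regions found in all 6 libraries.

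Few members were strong in every library. Only 16 (1.82%) lay above the median of the list in all 3 GR-KO lists, against 63 (3.77%) of the GR-Con-only regions in theirs. A fold above 5 in all 3 was reached by 6 members (0.681%) and by 40 GR-Con-only regions (2.40%). A q-value under 0.01 in all 3 lists was held by 536 members (60.8%). The lowest −log10 p of a member was 2.06, 2.07 and 2.21 in GR-KO 1, 2 and 3, next to the limit of the peak caller. Just outside the rule, the 3347 regions with a peak in 2 GR-KO lists and no GR-Con list had median folds of 2.77, 2.84 and 2.81, and the 1976 regions with peaks in 3 GR-KO lists and 1 GR-Con list had 3.16, 3.22 and 3.18. The members thus sat between these neighbouring patterns, with no gap on either side. Their width ran from 152 to 704 bp with a median of 270 bp, against 296 bp for GR-Con-only regions and 626 bp for regions in all 6 lists.

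Many members lay beside chromatin that was open in GR-Con as well. The median gap to the nearest GR-Con peak was 2219 bp. It was at most 200 bp for 121 members (13.7%), at most 1 kb for 296 (33.6%) and at most 10 kb for 718 (81.5%). The GR-Con-only regions had almost the same spacing from GR-KO peaks, with a median of 2176 bp and 82.4% within 10 kb. Only 66 (7.49%) had another member within 50 kb, and no chain of such neighbours was longer than 2, and 222 of the GR-Con-only regions (13.3%) had a neighbour of their own kind. The GR-Con-only set is the larger, and a larger set has more such neighbours, so these shares are not compared.

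To read the presence call in libraries that had not been used to choose the regions, the choice was repeated with the GR-KO and the GR-Con library of the same replicate number held out. The 2878, 3224 and 3174 regions chosen on the remaining 4 libraries had a peak in the held-out GR-KO library in 51.4%, 47.3% and 50.9% of cases, or 49.9% ± 2.2 (SD, n = 3). In the held-out GR-Con library they had a peak in 34%, 34% and 38.2% of cases, or 35.4% ± 2.42 (SD, n = 3). The GR-KO share was the higher in each of the 3 pairs, so the calls carried over to an unused library of the same group more often than to one of the other group. A region absent from 2 GR-Con lists was thus still found in the remaining one in 34% to 38.2% of cases, so the lack of a peak in a list is not a lack of accessible DNA. Regions chosen the opposite way had a peak in 56.6% ± 2.70 (SD, n = 3) of cases in the held-out GR-Con library and in 33.4% ± 1.83 (SD, n = 3) in the held-out GR-KO library. The 3 sets of each kind share regions, so no p is given.

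**Figure D2:**
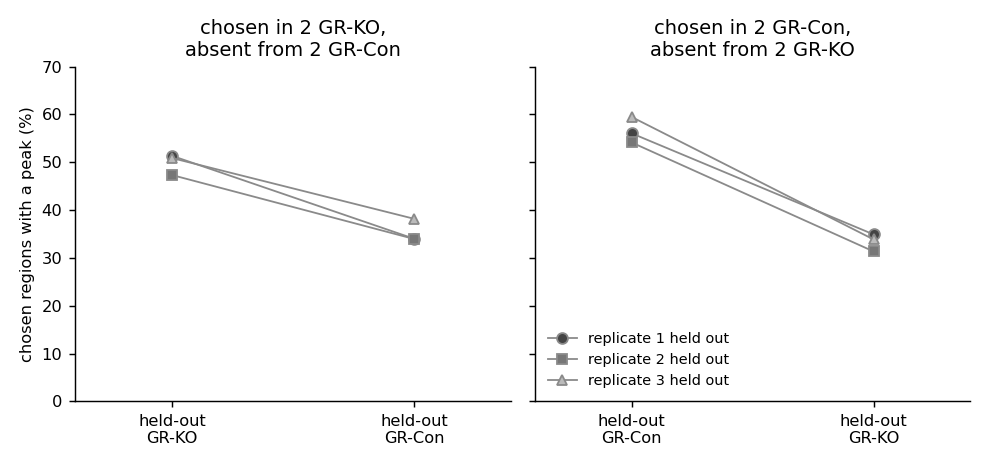
Share of regions with a peak (%) in the libraries that were held out when they were chosen; each line is 1 replicate number. In the left panel all lines fall from about 50% in the held-out GR-KO library to about 35% in the held-out GR-Con library, and in the right panel they fall from the held-out GR-Con to the held-out GR-KO library.

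The members ranked highest, by the lowest of their 3 within-list percentiles, lay in or near genes of several functions. The first was in an intron of Pdzd2, which encodes a protein with several PDZ domains, on chromosome 15 from 12654887 to 12655177, and its fold was 6.14, 6.06 and 6.55 in GR-KO 1, 2 and 3. The second, on chromosome 5 from 71590203 to 71590873, lay in an intron of Gabra4, a GABA-A receptor subunit, with Cox7b2 as the nearest start site, and had 9.21, 6.06 and 8.79. The third was in an intron of Cyp4f13, a cytochrome P450, 4120 bp from a transcription start site (TSS), with 8.67, 8.14 and 5.80. The Gabra4 and Cyp4f13 regions varied among the libraries more than the first. The fourth lay over an exon of Ankrd28, a regulatory subunit of protein phosphatase 6, with a GR-Con peak only 125 bp away, and had 6.68, 5.62 and 5.80.

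The members ranked next also had nearest or host genes of several kinds, some of them far away. A region 12389 bp upstream of Lmo4, a LIM-only cofactor, had 6.32, 5.87 and 5.43. The region in an intron of Arid5b, a DNA-binding chromatin regulator, had 8.77, 5.12 and 5.02, so that GR-KO 1 stood apart from the others. A region 279169 bp upstream of Cblb, a ubiquitin ligase, had 7.58, 6.25 and 4.86. One 229874 bp from the TSS of Cdh9, a cadherin, had 5.06, 5.87 and 4.86, and one in an intron of Fgfr2, a fibroblast growth factor receptor, had 8.49, 6.63 and 4.86. All 3 had their lowest value in GR-KO 3. The region 48286 bp upstream of Foxc1, a forkhead transcription factor, had 5.06, 4.92 and 6.36.

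The twelfth member lay in the targeted gene itself. It sat in an intron of Nr3c1 on chromosome 18, from 39460905 to 39461162, 26198 bp downstream of the nearest TSS, and its fold was 6.24, 4.76 and 6.39 in GR-KO 1, 2 and 3. The nearest GR-Con peak was 1340 bp away, and its 200-bp window held 2 copies of ACTGTA. In the same gene, 32683 bp from this member, an intronic region open in all 6 libraries was weaker in GR-KO. Its GR-Con folds were 17.4, 17.4 and 14.3 for replicates 1, 2 and 3, while the GR-KO folds were 6.68, 4.73 and 6.36. The 2 groups did not overlap there, and the rank comparison described later called the region lower in GR-KO (score difference −1.32, standard error 0.141, adjusted p = 0.010, limma). The position of the floxed segment was not used here, so at this region a loss of the DNA itself and a lower accessibility cannot be told apart.

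**Figure D3:**
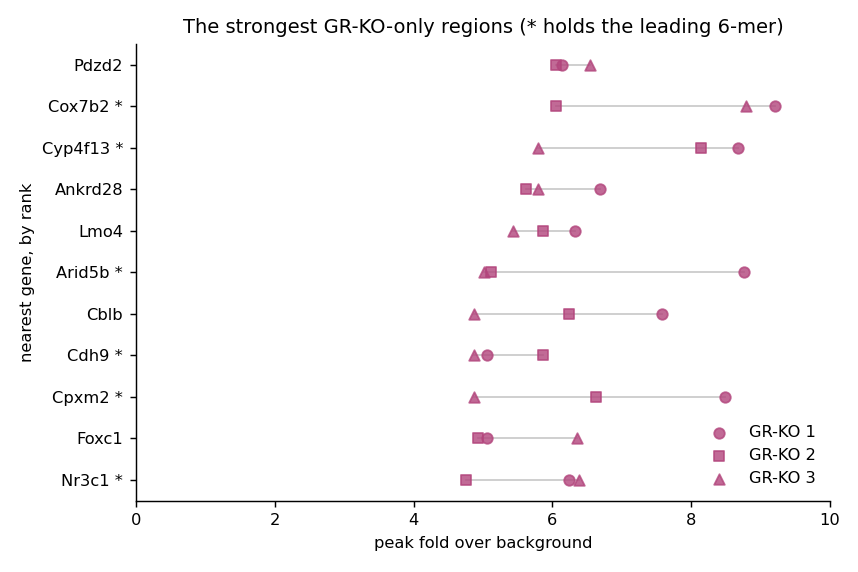
Peak fold over background of 11 of the 12 GR-KO-only regions ranked highest, named by their nearest gene; each symbol is 1 GR-KO library, and an asterisk marks a window with the leading 6-mer. All values lie between 4.76 and 9.21, the order of the libraries changes from region to region, and 6 of them carry the mark.

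Members were mostly far from promoters. Their median distance to the nearest protein-coding TSS was 26809 bp, against 25052 bp for GR-Con-only regions, 14345 bp for regions in all 6 lists and 17468 bp for all merged regions. Within 1 kb of a TSS lay 59 members (6.70%), against 5.93% of GR-Con-only regions and 19.4% of regions in all 6 lists. Introns held 425 members (48.2%), exons 50 (5.68%) and intergenic DNA 347 (39.4%). By distance, 181 lay 100 to 500 kb from the nearest TSS and 27 farther still. The low share of promoters was common to both one-sided sets and to the regions found in 1 GR-KO library alone (6.70%), so it did not mark out the members. By chromosome, 25 members (2.84%) were on the X, against 2.07% of all merged regions, and 0 of the 881 on the Y, where 20 of the 185015 merged regions lay.

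**Figure D4:**
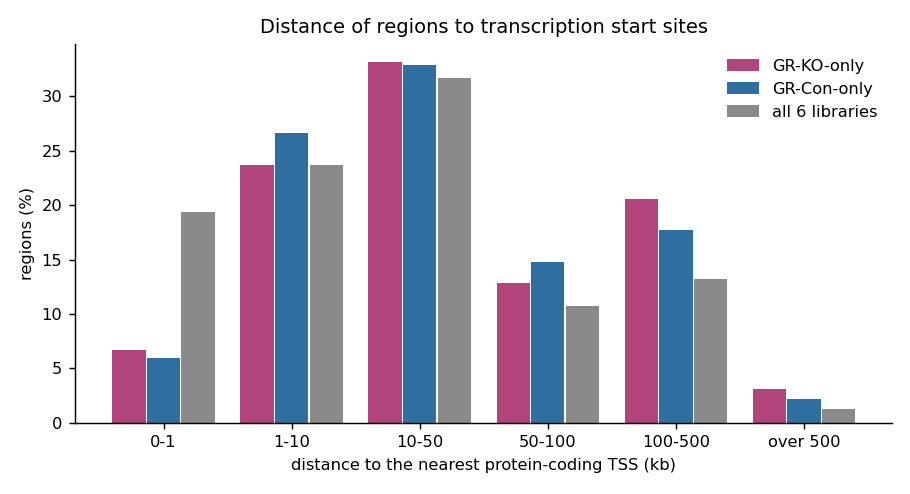
Share of regions (%) by distance to the nearest protein-coding TSS, for GR-KO-only regions, GR-Con-only regions and regions in all 6 libraries. Regions in all 6 libraries are the most frequent within 1 kb (19.4%), against 6.70% of GR-KO-only and 5.93% of GR-Con-only regions.

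The members were spread over 800 nearest protein-coding genes. Of these, 70 were nearest to 2 or more members and 9 to 3 or more, and 189 were also nearest to a GR-Con-only region. Cdh8, a cadherin of neurons, was nearest to 3 members of only 36 merged regions (8.33%) and to 0 GR-Con-only regions. The strongest of these, 913563 bp from its TSS, had a fold of 4.51, 7.19 and 4.68. Grin2b, the GluN2B subunit of the NMDA receptor, was nearest to 3 members of 67 regions (4.48%), with folds of 3.50, 3.63 and 3.59 in the strongest.

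The other genes with 3 members that the naming rule took were Tcf7l2, a transcription factor of Wnt signalling, Mgat5, an enzyme of N-glycan branching, Asap1, a GTPase-activating protein for Arf, and the genes Zfp608 and Gm11146. In this order they were nearest to 108, 96, 89, 165 and 194 merged regions. The members made up 2.78%, 3.125%, 3.37%, 1.82% and 1.55% of these, against 0.476% of all merged regions. All genes here were picked for their number of members, so these shares carry no test. Tcf7l2 had its strongest member 53030 bp from the TSS, with 3.98, 3.63 and 3.97. The Asap1 members included one at its promoter, 909 bp from the TSS, with a fold of only 1.95, 1.77 and 1.65 and a GR-Con peak 124 bp away. The Mgat5 members had folds from 1.88 to 3.55, those of Zfp608 from 2.35 to 5.06 and those of Gm11146 from 1.74 to 3.52. Of the genes named so far with 3 members, Cdh8 and Asap1 had no GR-Con-only region nearest to them and the others had 1 or more. A further gene with 3 members was Slc1a2, the main glial glutamate transporter, named here after its values were seen. Its members were among the weakest of all, with folds from 1.44 to 1.82.

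Over all 21938 protein-coding genes, 1545 (7.04%) had a GR-KO-only region within 100 kb of the TSS and 2958 (13.5%) had a GR-Con-only region. Against this background, 0 of 15 glucocorticoid-inducible genes had a GR-KO-only region, while 5 had GR-Con-only regions: Fkbp5, a co-chaperone of the receptor, Zbtb16, the metallothioneins Mt1 and Mt2, and Hif3a. Mt1 and Mt2 lie at 1 locus and had 1 such region each, which may be the same region. The list had a median of 33 merged regions within 100 kb, against 20 for all genes, and the part of that density was not tested. Among genes of the extracellular matrix that the study names as rising in GR-KO, Tnc and Mmp2 had a GR-KO-only region (2 of 8) and none had a GR-Con-only region. Among those named as falling it was Fbln1 (1 of 4), with Cntn1 on the GR-Con side. These 2 lists were chosen by the study on samples of the same design and are no independent evidence of a direction.

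The regions behind these counts were modest. The one for Tnc, the matrix glycoprotein tenascin-C, lay 88845 bp from the TSS of its gene model and had a fold of 2.53, 3.55 and 2.62 in GR-KO 1, 2 and 3. That for Mmp2, a secreted gelatinase, was inside an intron of Lpcat2, 50280 bp away, and had 6.14, 4.35 and 3.74. That for Fbln1, a fibulin of elastic fibres and basement membranes, was 46378 bp away and had 3.07, 2.84 and 3.18. All of these were at or below percentile 61.3 of their lists. Among progenitor and immature glia genes only Thbs1 (1 of 15), a thrombospondin that astrocytes secrete, had a member, 98506 bp upstream with 3.97, 3.98 and 3.93, and 3 had a GR-Con-only region. Among mature astrocyte genes it was Fam107a (1 of 10), an actin-associated protein, with a weak intronic member of 2.04, 2.04 and 1.94, and 2 had a GR-Con-only region.

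Of the genes of astrocyte identity, Slc1a2 and Aldoc, an aldolase of glia, had members (2 of 15, or 13.3%, against 7.04% of all genes), and 5 had GR-Con-only regions (33.3%, against 13.5%). These genes had a median of 39 merged regions of any kind within 100 kb, against 20 for all genes, and the part of that density in both shares was not tested. Of the axon guidance genes, 0 of 21 had a member, and 3 had a GR-Con-only region. Of the reactive astrocyte list it was Gbp2 (1 of 12, the same gene on the GR-Con side), and of AP-1 and early response genes Jund (1 of 10, with 2 on the GR-Con side). The lists of other cell types had Snap25 and Neurod6 for neurons (2 of 12, with 0 on the GR-Con side), Myrf for the oligodendrocyte lineage (1 of 10, with 3), Csf1r for microglia (1 of 10, with 3) and Pecam1 and Pdgfrb for vessel cells (2 of 10, with 0). With lists of 4 to 21 genes, 1 gene moves these shares by several percentage points.

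The sequence of the members was not used to choose them. In the 200 bp around the summit, 189 members (21.5%) held ACTGTA on either strand, against 8.64% of all merged regions, 7.0% of regions in all 6 lists and 6.05% of GR-Con-only regions. Of all distinct 6-mers taken with their reverse complements, it had the highest ratio of its share in the members to its share in all merged regions, 2.48, followed by GATATC at 1.83. The overlapping 6-mers TACTGT and CTGTAA ranked 6 and 10, with ratios of 1.72 and 1.57. Members with the 6-mer were about as strong as the others, with median folds of 3.09, 3.22 and 3.19 against 3.03, 3.03 and 2.99. The share was 23.7% in the 536 members with a q-value under 0.01 in all 3 lists and 18% in the other 345. It was 22.0% in promoter members and 21.4% elsewhere.

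The 6-mer appeared in greater shares as more GR-KO libraries had a peak. It was held by 12.2% of regions found in 1 GR-KO library and no GR-Con library, by 13.7% of those found in 2 and by 21.5% of those found in 3. On the GR-Con side the share went the other way, from 9.74% in 1 library to 7.39% in 2 and 6.05% in 3. Among regions found in a single library, which are outside the rule, the share was 11.8%, 12.5% and 12.5% in the GR-KO libraries against 9.44%, 9.41% and 10.2% in the GR-Con libraries, each in the order of replicates. The groups did not overlap, and the difference of 2.57 percentage points had an exact permutation p of 0.1, the smallest possible here. The 6-mer was chosen with earlier results of these libraries known, and single-library regions rest on the same peak calls. This comparison was also added after values were seen, so it is no independent support.

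The 215 copies in the members lay somewhat towards the summit. Within 50 bp of it were 126 (58.6%), against 51.2% of the 17242 copies in all merged regions, and 46 (21.4%) were within 20 bp. The base after ACTGTA was A in 39.5% of copies in the members and in 26.4% of copies in all merged regions, and the base after that was T in 34.4% and 27.7%. At the 4 bases before the 6-mer no base exceeded 30.7% in the members. More than 1 copy was present in 23 members (2.61%), among them the one in Nr3c1. The windows of members with the 6-mer had a median GC content of 46%, against 49% for the other members.

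The GR palindrome, sought as GNACANNNTGTNC on both strands, ran in the opposite direction. It was present in 1 member (0.114%), in 111 GR-Con-only regions (6.65%) and in 0.532% of regions in all 6 lists. The member lay 76358 bp from Cdkn2b on chromosome 4, from 89387260 to 89387534, with a fold of 3.43, 2.46 and 3.18, and is named here because it was the only one. With more GR-KO libraries the share fell from 0.387% to 0.149% and 0.114%, and with more GR-Con libraries it rose from 0.890% to 2.02% and 6.65%. In regions found in a single library it was 0.483%, 0.384% and 0.283% in the GR-KO libraries against 1.15%, 1.04% and 0.620% in the GR-Con libraries, again without overlap (exact permutation p = 0.1). The single site AGAACA, which can form part of the palindrome, was in 16.0% of members, 31.6% of GR-Con-only regions and 18.1% of all merged regions.

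**Figure D5:**
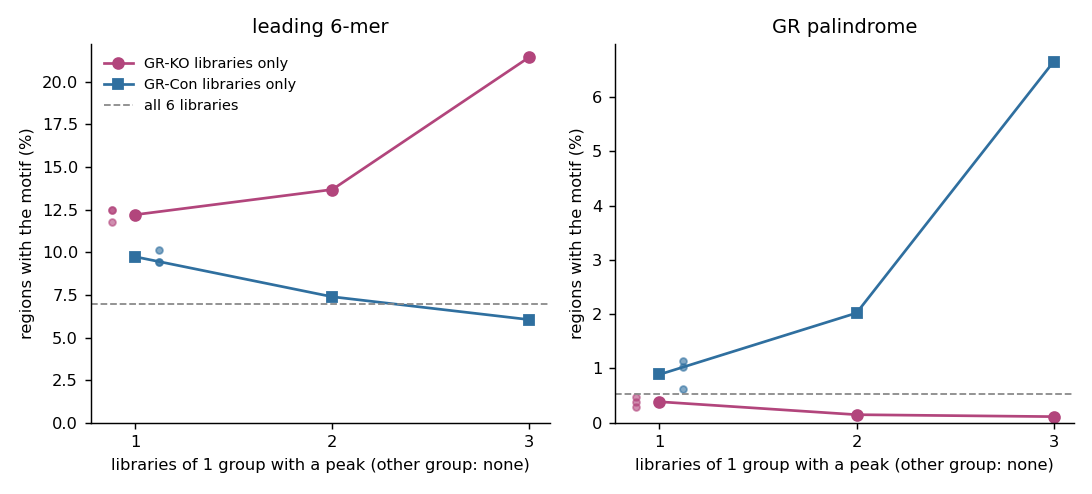
Share of regions (%) whose 200-bp window holds the leading 6-mer (left) or the GR palindrome (right), by the number of libraries of 1 group with a peak when the other group has none; small points are single libraries and dashed lines are regions in all 6 libraries. The 6-mer reaches 21.5% at 3 GR-KO libraries and the palindrome 6.65% at 3 GR-Con libraries, while the other group stays low or falls.

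The other motifs were counted in the same way. AP-1 (TGANTCA) was in 82 members (9.31%), against 6.11% of GR-Con-only regions and 6.74% of all merged regions. In regions of a single library its share was 8.49% ± 0.285 (SD, n = 3) in GR-KO and 7.0% ± 1.73 (SD, n = 3) in GR-Con, a difference within the spread (exact permutation p = 0.4). The CTCF core was rare in the members, in 6 (0.681%) against 4.93% of all merged regions, 8.15% of regions in all 6 lists and 2.52% of GR-Con-only regions. It was also rare in regions found in 1 GR-KO library and no GR-Con library (0.916%). The bHLH E-box CAGCTG was in 17.3% of members and 16.1% of all regions, TEAD (GGAATG) in 11.4% of both, SOX (ACAATG) in 11% and 10.0%, and RFX (GTTGCCA) in 4.99% and 4.19%. The ZBTB12 motif TCTAGAAC, which overlaps the single GR site by AGAAC, was in 6 members (0.681%), against 0.538% of all merged regions and 1.38% of GR-Con-only regions. The ZBTB18 motif CATCTGGA was in 5 (0.568%, against 1.04%), near Unc13b, Lrrc8b, Cck, Sez6 and Ext1, which are named for the small count. The NFI palindrome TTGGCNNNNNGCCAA was in 0 of 881 members and in 108 of all merged regions. All motifs were counted on both strands.

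In base composition the members had the GC content of the other one-sided regions but more windows without a CpG. Their median GC content was 48.5%, the same as for GR-Con-only regions, against 52% for regions in all 6 lists. No CpG was present in 19.5% of the members' windows, against 13.8% of GR-Con-only windows, 17.1% of those found in 1 GR-KO library and no GR-Con library, and 9.56% of windows in all 6 lists. Repeats covered 50% or more of the window in 54 members (6.13%), against 5.51% of GR-Con-only regions and 2.24% of regions in all 6 lists.

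Regions open in all 6 libraries were not used by the rule and could be tested. Their folds were ranked within each library, the ranks were turned into normal scores, and GR-KO was compared with GR-Con by limma. Over the 90301 regions, 180 (0.199%) were called higher and 239 (0.265%) lower in GR-KO at an adjusted p under 0.05. Of the 5200 such regions within 50 kb of a member, 8 (0.154%) were higher and 14 (0.269%) lower, shares close to those over all regions. Their median percentile within the whole list was 69.8, 69.9 and 70.1 in the GR-KO libraries against 71.0, 70.6 and 72.2 in the GR-Con libraries. That is a difference of −1.35, and of −1.18 for all regions in the 6 lists, but the GR-Con lists are longer and a percentile in a longer list is not the same measure, so no shift is read from it. With ranks taken among the shared regions alone, the median score difference was 0.018 near members and 0.013 over all, and 53.6% and 52.5% of the differences were above 0. These calls rested on all 6 libraries: leaving out 1 GR-KO library left 0 higher and 5 to 6 lower near members, and leaving out 1 GR-Con library left 1 to 3 higher and 2 to 7 lower. With a GR-KO library out, 287 to 321 of the 5200 were higher and 312 to 341 lower at an unadjusted p under 0.05 by limma, while 10821 to 11155 of all 90301 passed it in either direction. When regions were ranked by −log10 p instead, 1.97% of all regions were called higher and 1.85% lower, and within 50 kb of a member 146 (2.81%) were higher and 97 (1.87%) lower. Near GR-Con-only regions the same ranking called 153 of 9913 (1.54%) higher and 315 (3.18%) lower.

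Among these neighbours, 3 are given as examples chosen after their values were seen. A region nearest to Col5a1, a chain of type V collagen, 31212 bp from a member, was stronger in GR-KO. Its GR-Con folds were 5.10, 6.02 and 4.73 and its GR-KO folds 10.5, 11.5 and 13.1. Its score was higher in GR-KO by 1.06 (standard error 0.139, adjusted p = 0.0216, limma). A region in Grin2b, 5202 bp from one of its members, rose from 7.18, 6.59 and 7.61 (GR-Con) to 12.3, 15.8 and 12.7 (GR-KO; adjusted p = 0.0318, limma). A region 375493 bp from Gja1, the gap junction protein connexin 43 of astrocytes, fell from 19.1, 18.6 and 17.4 (GR-Con) to 13.9, 12.4 and 11.8 (GR-KO; adjusted p = 0.0300, limma). The groups overlapped at none of these 3 regions. As none of the regions near members was called higher without any 1 of the GR-KO libraries, the calls at Col5a1 and Grin2b were lost there.

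The 6-mer could also be followed in the regions open in all 6 libraries. It had been singled out by earlier results of these same libraries, and these shares were added after values were seen. They are thus a description and no independent support. ACTGTA was in 81 of the 180 regions called higher in GR-KO (45%) and in 13 of the 239 called lower (5.44%), against 7.0% of all of them. The GR palindrome was in 1.11% of those called higher and in 47 of those called lower (19.7%). With ranks of −log10 p, ACTGTA was in 437 of 1782 higher calls (24.5%) and 79 of 1674 lower calls (4.72%), and the palindrome in 0 and 200 (11.9%). The 180 and 239 calls by fold depended on every library, with 20 to 25 higher and 60 to 66 lower after leaving out 1 GR-KO library and 26 to 51 higher and 18 to 99 lower after leaving out 1 GR-Con library, and they numbered 3 and 1 without the variance trend. Across libraries, the 6319 shared regions with ACTGTA had a median percentile of 70.8, 71.2 and 71.1 in the GR-KO libraries against 69.6, 69.4 and 71.7 in the GR-Con libraries, which overlapped (difference 0.79, exact permutation p = 0.4). Shared regions without ACTGTA differed by −1.33, from which no fall is read, since these percentiles too come from lists of unequal length. The 480 with the palindrome stood at 63.7, 63.1 and 63.2 in the GR-KO libraries against 75.2, 76.0 and 74.5 in the GR-Con libraries, with no overlap (difference −11.9, exact permutation p = 0.1). Shared regions without the palindrome, in the same lists, differed by −1.14.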

How the data were processed

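ATAC-seq peaks of 6 libraries of sorted V1 astrocyte nuclei, 3 GR-KO and 3 GR-Con, were analysed. Reads had been run through the ENCODE pipeline for ATAC-seq by the authors, who called peaks in each library separately (p threshold 0.01, mm10). For each peak the deposited lists give a capped score, a fold ratio over local background, and −log10 values of p and q. They hold no counts, so the depth and counting error of a value are unknown and the edgeR test of the study was not run. A longer list makes absence from it rarer. Several peaks may share an interval, and the strongest was used.

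Peaks were merged in Python 3.11.15 with pandas 2.3.3, and 0 of 1116429 ended beyond a GRCm38 chromosome. Genes were those of the GENCODE annotation of that build. Normal scores of ranks were compared in limma 3.58.1 (R 4.3.3, variance trend, Benjamini-Hochberg adjustment), a step tested on simulated data. Single values per library were compared by exact permutation tests in scipy 1.17.1, two-sided. The named regions are the 12 members with the highest lowest percentile, those within 100 kb of genes of 5 lists, and those of 8 genes nearest to most members, ties broken by summed percentiles; 2 of these items are not reported here. The 12 motifs and all 6-mers were counted as descriptions. The members, the 13 gene lists and ACTGTA were chosen with earlier results of these data known, and the single-library and shared-region motif shares were added after values were seen. Whether libraries of a group came from separate litters or days is not given in the sources used here, so p-values measure the spread between these pools.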

Additional observations from a re-analysis of the deposited data

How the results depend on the processing

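Absence from a list depends on depth, which is unknown, so the members are regions not called rather than regions closed in GR-Con. The number of GR-KO-only regions was 702 with peaks of q under 0.01, 986 with equal list lengths, 776 when intervals up to 200 bp apart were merged, 613 without peaks of 200 bp or less, and 1488 to 2149 with 1 library left out, which loosens the rule. GR-Con-only regions numbered 1728 with peaks of q under 0.01 and 1397 with equal list lengths. They numbered 1494 with the wider merging, 1476 without the narrow peaks and 2631 to 3366 with 1 library left out. They outnumbered GR-KO-only regions in each of these settings. Compared with 881 against 1669 under the main rule, the gap was narrower with equal list lengths and wider with peaks of q under 0.01. The share of members with ACTGTA was 18.8% without narrow peaks, 26.7% in the whole merged region and 16% to 19% with 1 library left out. The GR palindrome share was 0% with peaks of q under 0.01. The median TSS distance was 12041 bp with TSSs of all annotated genes, where 9.88% of members were within 1 kb, and 22451 to 27546.5 bp with 1 library left out. With a distance of 50 kb, 7 of the gene lists had a member in place of 11, and neither Tnc nor Mmp2 had one. At 200 kb all 13 lists had a member, with Nfkbia and Angptl4 (2 of 15) for glucocorticoid-inducible genes and Slit3 (1 of 21) for axon guidance, and by gene body it was Slit3 and Unc5c (2 of 21).

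Calls near the members were few and unstable. Higher and lower calls numbered 146 and 97 with ranks of −log10 p, 3 and 4 within 10 kb, 27 and 50 within 200 kb, 0 and 1 without the variance trend, 2 and 7 with the replicate block, and 0 to 3 and 2 to 7 with 1 library left out. Without the variance trend, limma gave 398 higher and 341 lower regions near members at an unadjusted p under 0.05, of 5200, while 11928 of all 90301 passed it in either direction. Over all shared regions the 180 higher and 239 lower calls became 1782 and 1674 with ranks of −log10 p, 51 and 109 with the replicate block and 3 and 1 without the variance trend. Deviations of same-numbered libraries were hardly correlated over the shared regions (r = 0.0322, 0.00379 and 0.0211). Pairs of libraries with different numbers gave r from −0.0269 to 0.00630. Values this small cannot show whether same-numbered libraries shared a litter or a day, which is not given. The block left the median percentile difference at −1.35, since it averages the same libraries, and this value moves with list length.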
